A study of Mus musculus with 36 samples.

Results

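Transcripts on tagged ribosomes of microglia were set against a background precipitate of the same kind of brain, using the 6 anti-HA and 6 IgG libraries of untreated Sall1 mice, 12 of the 36 samples of the series. The Sall1 HA libraries were RNA precipitated with anti-HA antibody from brain tissue of mice at steady state with the genotype CX3CR1-CCre+/-:Sall1-NCre+/-:Ribo-tag+/-, and the Sall1 IgG libraries were control precipitates of the same genotype, so both groups carry the tag allele and both Cre fragments. The only other libraries used were 6 HA and 6 IgG of steady-state mice with CX3CR1-CCre+/-:Lyve1-NCre+/-:Ribo-tag+/-. They serve where the enrichment of Sall1 mice is compared with that of a second line. Being fitted together with the Sall1 libraries, they also enter the estimate of spread behind the p-values of the Sall1 contrast. Neither the age nor the sex of the mice is in the labels. They also leave unsaid whether each library stands for its own mouse, so the spread behind the p-values may be technical.

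In the RiboTag method, Cre recombination switches the ribosomal protein gene Rpl22 to a copy with an HA epitope, so that an antibody to HA pulls down ribosomes, with the mRNA they carry, from the cells in which Cre was active. The split form used here makes each fragment of Cre from its own driver gene, and Cx3cr1, a chemokine receptor of myeloid cells, together with Sall1, a transcription factor that marks parenchymal microglia among macrophages, is meant to restrict the tag to microglia. Microglia are the resident macrophages of the brain parenchyma: they sense injury through surface receptors, clear debris through lysosomes and supply complement C1q. They are a small share of brain cells, so a precipitate from whole tissue also carries RNA of neurons and glia that stick without the tag, which the IgG precipitate measures.

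The Sall1 libraries held 1252785 to 1655096 counts in HA and 857553 to 1696679 in IgG. Levels are given as CPM, that is counts scaled to the library's total after TMM scaling between libraries. The files name each library by a pair of numbers, such as 1-2. Libraries with a first number of 1 or 2 held 29 to 63 counts of the Y-linked genes Ddx3y and Eif2s3y, and the HA and IgG libraries with first number 3 held 0 to 2. Ribosomal protein genes summed to 91169 and 69437 CPM in HA libraries 3-1 and 3-2 and to 43626 to 52374 CPM in the other HA libraries, against 39522 to 64235.5 CPM in IgG, where library 3-2 was the highest. Results are therefore also given by first number.

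Of 9619 genes tested, 943 passed the threshold (9.8%), a Benjamini-Hochberg adjusted p under 0.05 in edgeR's quasi-likelihood test. HA was higher for 463 of them (4.81%) and lower for 480 (4.99%), and a change of at least 2-fold was found upward for 110 (1.14%) and downward for 53 (0.551%). The 110 genes were of low abundance in the background, with a median of 8.56 CPM over their IgG levels against 33.9 CPM for all genes tested. Together they held 0.867% to 1.63% of the counts of an HA library and 0.318% to 0.398% of those of an IgG library. The same libraries picked the 110 genes for a high ratio, so these levels and shares describe the set and are no separate evidence. The count of passing genes was 541 with the 2 Sall1 groups fitted alone, 567 without Sall1 IgG library 1-1, 263 without the libraries of first number 1 and 69 without the 8 libraries that hold Y-linked counts, the last with 2 libraries left per group. Within one first number it was 1408 for number 1, 509 for number 2 and 10 for number 3. A lower ratio of HA over IgG can come from less of a transcript in HA or from more of it in IgG. It measures neither the number of cells of a type nor their RNA per cell.

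**Figure D1:**
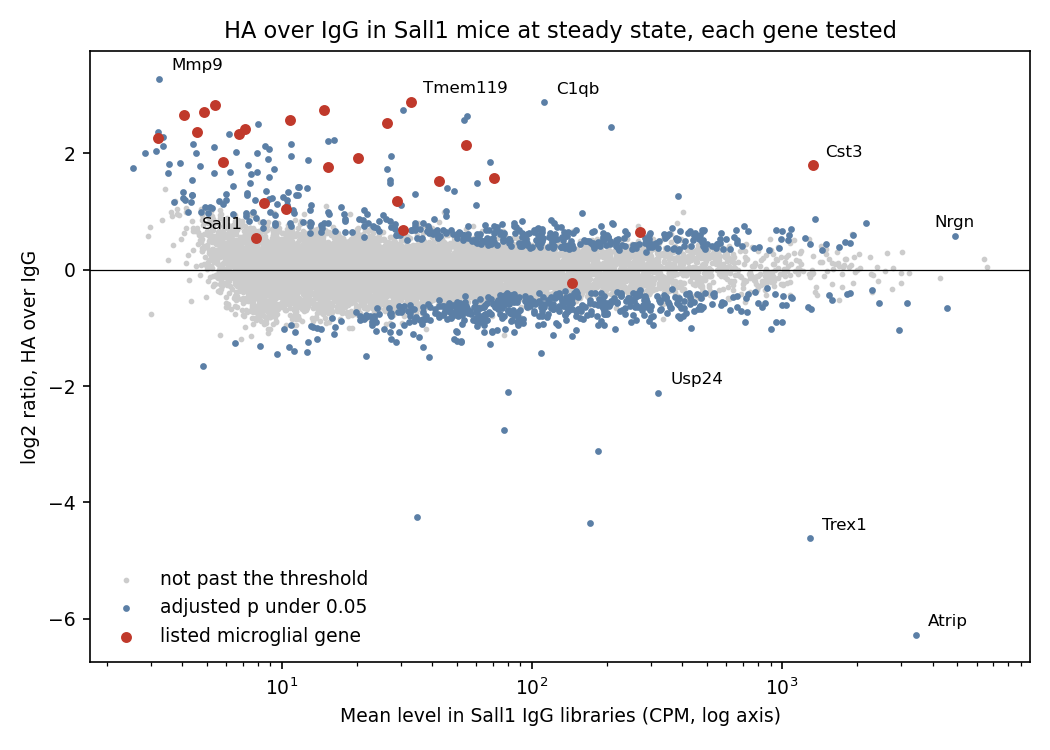
Each point is 1 of the 9619 genes tested, with its mean level in the Sall1 IgG libraries in CPM on a log axis and its log2 ratio of HA over IgG. Listed microglial genes (red) lie between -0.22 and 2.89, with 22 of 25 past the threshold (blue marks other genes past it), and Atrip and Trex1 lie far below 0 at high IgG levels.

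Microglial identity genes rose in HA. A list of 31 microglial marker genes, chosen with earlier results of these data known and so not an independent test, had 25 tested members. Of these, 22 were higher, 0 were lower and 3 did not pass, against 4.81% higher and 4.99% lower over all genes tested. The median log2 ratio was 1.91 against -0.01 over all genes tested. The groups did not overlap for 17 of the 25, a state that 2.47% of all genes tested reached with HA above. Summed over the 28 listed genes in the table, the microglial level was 4577, 6997 and 8749 CPM in the lowest, median and highest HA library and 1954, 2077 and 2501 CPM in IgG. The 2 HA libraries of first number 3 were the lowest, at 5507 and 4577 CPM, and still above each IgG library.

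Tmem119, which encodes a membrane protein that marks parenchymal microglia, read 169.6, 252 and 282 CPM in the lowest, median and highest HA library, against 21.2, 35.6 and 43.5 CPM in IgG. Every HA library lay above every IgG library. The log2 ratio was 2.89 ± 0.19 (SE, edgeR adjusted p = 1.47e-12), a 7.4-fold difference. By first number the difference of mean log2(CPM + 1) was 3.43, 2.88 and 2.31. Selplg, its neighbour in the RefSeq gene order and the gene of a selectin ligand on leukocytes, read 155, 253 and 302 CPM in HA and 44.2, 51.3 and 68.5 CPM in IgG, again without overlap (2.15 ± 0.15).

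Trem2, the lipid-sensing receptor of microglia, read 96.0, 156 and 199.7 CPM in HA libraries and 22.9, 26.8 and 28.1 CPM in IgG libraries. The IgG values were close together and the HA values spread widely, with the lowest HA library above the highest IgG library. Its ratio was 2.53 ± 0.18 (edgeR adjusted p = 7.71e-12), and by first number 2.73, 2.62 and 1.99. Csf1r, the receptor for the survival factors of microglia, read 120.3, 228 and 289.8 CPM in HA against 47.0, 57.9 and 111 CPM in IgG (1.58 ± 0.22). Here the gap was narrow, since the lowest HA library and the highest IgG library lay within 10 CPM of each other.

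Aif1 encodes Iba1, the actin-binding protein used to stain microglia. It read 27.3, 65.8 and 104 CPM in HA libraries and 4.58, 10.7 and 14.8 CPM in IgG, with a log2 ratio of 2.58 ± 0.29. Cst3, the secreted protease inhibitor cystatin C that astrocytes and neurons also make, had the highest CPM of the list, at 2949, 4489.6 and 6276 CPM in HA and 1099, 1238 and 1655 CPM in IgG (1.80 ± 0.15). It alone made up most of the summed level of the list. The other members that passed included the crystallin gene Crybb1 (2.74), the secreted ribonuclease gene Rnase4 (2.72), the sushi-domain gene Susd3 (2.66), the membrane-shaping gene Bin2 (2.84), the checkpoint receptor gene Lag3 (2.41), the fructose transporter gene Slc2a5 (2.26), the leukotriene synthase gene Ltc4s (1.91) and Olfml3 (1.77). Smaller log2 ratios belonged to the Fc receptor-like gene Fcrls (1.18), the integrin gene Itgam (1.16) and the matrix gene Sparc (0.65).

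The driver genes gave a mixed picture. Cx3cr1 read 6.62, 20.2 and 123 CPM in HA and 2.75, 6.77 and 9.89 CPM in IgG, and the groups overlapped. Library 1-2 alone held the highest value, the other 5 HA libraries lying at or below 25.8 CPM. The log2 ratio of 2.34 ± 0.56 (edgeR adjusted p = 0.00832) became 1.30 without that library, and it was 3.34, 1.31 and 0.32 by first number. Siglech, a sialic acid-binding receptor of microglia, had its highest value in the same HA library (67.8 CPM). Its ratio of 2.37 ± 0.57 was 1.53 without it. Sall1 read 5.79, 10.9 and 18.4 CPM in HA libraries and 4.28, 7.56 and 12.4 CPM in IgG libraries, with overlap and no pass (0.55 ± 0.31, edgeR adjusted p = 0.28).

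The tagged gene itself, Rpl22, is expressed by every cell and read 55.2 to 83.6 CPM in HA against 54.9 to 70.8 CPM in IgG (0.07 ± 0.13, edgeR adjusted p = 0.807; -0.0201 without HA library 1-2). Besides Sall1, the microglial genes that did not pass were the TGF-beta receptor gene Tgfbr1 (0.68 ± 0.23, edgeR adjusted p = 0.0583) and Rtn4rl1 (-0.22 ± 0.15, edgeR adjusted p = 0.399), which neurons express too. Tgfbr1 passed without Sall1 HA library 3-1 (0.82) or 3-2 (0.80) or IgG library 2-2 (0.76). The purinergic receptor gene P2ry12, a hallmark of microglia, fell under the count filter of the test, with 13, 35, 23, 16, 10 and 10 counts in the HA libraries against 4, 2, 2, 1, 0 and 1 in IgG. Its relative P2ry13 had 40 counts over the HA group against 5 over the IgG group.

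**Figure D2:**
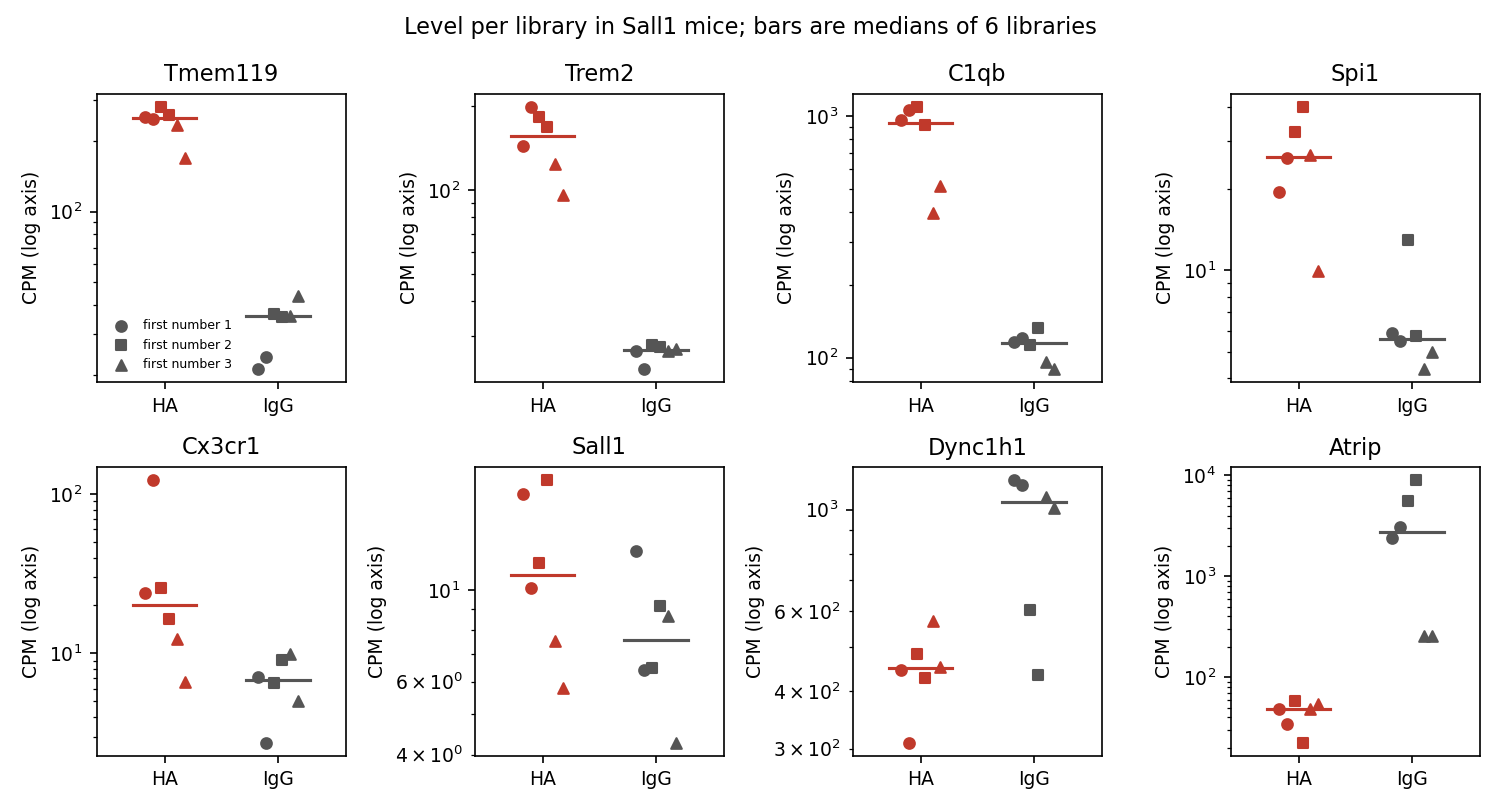
Level of 8 genes in each Sall1 library, in CPM on log axes, with HA left of IgG, bars at the medians of 6 libraries and marker shapes for the first number of a library. Tmem119, Trem2 and C1qb do not overlap between groups, Cx3cr1 has 1 high HA library, Sall1 overlaps, and Atrip in IgG falls to 255 CPM in the lowest library of first number 3.

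Among complement genes, the 3 chains of C1q, the starter of the classical pathway, were among the most enriched transcripts. C1qa read 804, 1116 and 1641 CPM in HA and 174, 191 and 287 CPM in IgG (2.46 ± 0.18). For C1qb the levels were 395, 935 and 1091 CPM in HA and 89.8, 115 and 132 CPM in IgG (2.88 ± 0.25), and for C1qc 221, 321 and 444 CPM in HA and 45.1, 51.4 and 67.7 CPM in IgG (2.57 ± 0.17). The 3 genes lie next to each other in the RefSeq gene order, and none overlapped between groups. HA libraries 3-1 (395 CPM) and 3-2 (513 CPM) held the lowest C1qb. Of the 5 complement genes tested, 3 were higher and 1 lower, against 4.81% higher and 4.99% lower over all genes tested. The lower one was C4b (-0.77 ± 0.25, edgeR adjusted p = 0.0474), which brain cells other than microglia also express. The C4b call was lost without any one of HA libraries 1-2, 2-1, 3-1 and 3-2 or IgG libraries 1-1, 1-2 and 3-2, at ratios of -0.66 to -0.81.

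Promoters of the leading genes are shown because they can be read against PU.1, the product of Spi1, a transcription factor that microglia depend on and that binds DNA around the ETS core letters. RefSeq promoters (GRCm38.p6, 250 bases before to 50 bases after the start, the first start listed per gene) were found for 7723 of the 9619 tested genes and for 14 of the 20 genes with the largest ratios. The letters GAGGAA, searched on both strands, stood in 41.2% of the 80 promoters found for genes at least 2-fold higher, in 27.8% of 374 promoters of all higher genes, in 22.5% of 387 promoters of lower genes, in 25.6% of those of all genes tested and in 28.3% of all 27025 listed. The longer form GAGGAAGT, which contains the first, stood in 10% of the 2-fold higher set, in 3.74% of all higher genes, in 1.55% of the lower set, in 2.49% of all tested and in 3.28% of all listed. Of the 20 promoters found for listed microglial genes, 9 held the short form and 0 the longer one. Of the 14 leading genes with a promoter, 7 held the short form. A match is a description of letters in the window and says nothing of binding. The 5 promoters that follow were picked from the 7 with a match, so they do not stand for the other leading genes. In them, capitals mark GAGGAA or its reverse complement TTCCTC, and each is written 5′ to 3′ in the direction of the gene.
Ctss (chr3:95526536-95526835, plus strand): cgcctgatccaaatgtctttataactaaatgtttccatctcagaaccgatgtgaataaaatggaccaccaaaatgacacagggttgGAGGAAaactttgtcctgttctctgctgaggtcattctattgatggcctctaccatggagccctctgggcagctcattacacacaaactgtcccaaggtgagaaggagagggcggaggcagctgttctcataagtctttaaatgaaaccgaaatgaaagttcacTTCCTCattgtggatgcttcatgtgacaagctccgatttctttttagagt
C1qc (chr4:136892865-136893164, minus strand): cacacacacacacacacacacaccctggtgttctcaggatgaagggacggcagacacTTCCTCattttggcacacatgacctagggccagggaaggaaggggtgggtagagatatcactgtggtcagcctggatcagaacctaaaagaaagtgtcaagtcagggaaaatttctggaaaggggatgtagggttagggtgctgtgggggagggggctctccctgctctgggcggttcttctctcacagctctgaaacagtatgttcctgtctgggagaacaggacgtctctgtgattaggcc
C1qb (chr4:136886151-136886450, minus strand): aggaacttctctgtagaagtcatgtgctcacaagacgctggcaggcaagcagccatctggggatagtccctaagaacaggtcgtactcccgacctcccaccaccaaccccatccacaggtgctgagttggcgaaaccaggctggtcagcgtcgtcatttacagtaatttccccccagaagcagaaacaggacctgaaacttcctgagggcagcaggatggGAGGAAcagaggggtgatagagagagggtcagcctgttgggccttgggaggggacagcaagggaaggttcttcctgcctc
Trem2 (chr17:48346151-48346450, plus strand): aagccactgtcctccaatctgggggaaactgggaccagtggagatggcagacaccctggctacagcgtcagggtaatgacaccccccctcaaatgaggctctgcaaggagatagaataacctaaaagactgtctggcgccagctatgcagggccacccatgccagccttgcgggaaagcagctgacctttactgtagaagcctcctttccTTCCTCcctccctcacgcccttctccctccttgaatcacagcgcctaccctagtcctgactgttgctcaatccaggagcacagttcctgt
Laptm5 (chr4:130913066-130913365, plus strand): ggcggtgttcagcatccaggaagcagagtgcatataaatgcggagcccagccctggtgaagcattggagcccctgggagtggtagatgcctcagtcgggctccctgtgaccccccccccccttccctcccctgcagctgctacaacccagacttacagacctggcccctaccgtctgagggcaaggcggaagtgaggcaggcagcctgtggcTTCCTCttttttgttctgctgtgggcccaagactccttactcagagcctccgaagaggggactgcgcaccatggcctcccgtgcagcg
In Ctss and C1qc the marked reverse complement is part of the longer form, and in Ctss its first marked base is the annotated start. The single matches of C1qb, Trem2 and Laptm5 begin 30, 40 and 38 bases before the start.

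Transcription factors and growth factors of myeloid cells were the next group. Of 19 listed, 13 were tested, 6 were higher, 0 were lower and 7 did not pass (median log2 ratio 0.66). Over all genes tested, 4.81% were higher and 4.99% lower. Spi1 read 9.93, 26.3 and 40.2 CPM in HA and 4.33, 5.60 and 12.9 CPM in IgG. The groups overlapped through a single IgG library, 2-1, while the other IgG libraries were at or below 5.90 CPM, and the ratio was 2.02 ± 0.36 (edgeR adjusted p = 0.000294). Tgfb1, the cytokine that maintains the microglial state, read 33.4, 50.9 and 57.9 CPM in HA and 7.33, 12.5 and 17.9 CPM in IgG without overlap (1.89 ± 0.24). The interferon regulatory factor genes Irf5 (1.44 ± 0.33) and Irf8 (1.18 ± 0.31) and the myeloid factor gene Cebpa (1.11 ± 0.25) were higher too.

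Immune receptors and their signalling partners rose as well. Of 20 tested members of a list of 46, 13 were higher, 0 were lower and 7 did not pass, with a median log2 ratio of 1.33. The shares over all genes tested were 4.81% higher and 4.99% lower. Fcer1g, an adaptor chain that carries an activation motif, read 43.0, 45.2 and 55.9 CPM in HA libraries and 4.32, 7.33 and 14.3 CPM in IgG (2.50 ± 0.22). Tyrobp, the adaptor through which Trem2 signals, read 136, 271 and 325 CPM in HA and 50.7, 63.4 and 108 CPM in IgG (1.86 ± 0.22). Neither overlapped between groups. The Fc receptor gene Fcgr3 was higher by 2.21 ± 0.25, the integrin genes Itgb2 by 1.82 ± 0.47 and Itgb5 by 1.11 ± 0.15, and the tetraspanin gene Cd37 by 1.68 ± 0.29.

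Within that list, the NADPH oxidase, which makes superoxide in phagocytes, was represented by Ncf1 and Cyba. Ncf1 read 57.1, 71.9 and 98.0 CPM in HA and 11.1, 14.5 and 24.0 CPM in IgG (2.23 ± 0.20), and Cyba was higher by 1.96 ± 0.20. The difference for Ncf1 was not smallest in first number 3 (1.88, 2.13 and 2.49 by first number). The lipid phosphatase gene Inpp5d, an inhibitor of receptor signalling, was higher by 1.41 ± 0.23, and Arhgdib, a regulator of small GTPases in blood cells, was higher by 1.66 ± 0.27. Unc93b1, which escorts toll-like receptors to endosomes, had a ratio of 1.26 ± 0.28. The Src-family kinase gene Lyn did not pass (1.01 ± 0.37, edgeR adjusted p = 0.0807). Among leading genes outside the lists, Tnfaip8l2, an inhibitor of immune activation, read 12.98, 31.1 and 49.0 CPM in HA and 3.56, 5.53 and 8.84 CPM in IgG (2.34 ± 0.31), and Cryba4, the RefSeq neighbour of Crybb1, was higher by 2.36 ± 0.38.

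Lysosomal genes were tested next. Of 23 tested, 10 were higher, 1 was lower and 12 did not pass, with a median log2 ratio of 0.35. The shares over all genes tested were 4.81% higher and 4.99% lower. Ctss, the cathepsin of antigen-presenting cells, read 83.4, 247 and 286 CPM in HA and 22.8, 30.9 and 35.4 CPM in IgG (2.75 ± 0.32), and Laptm5, a lysosomal membrane protein of blood cells, 241, 362 and 465 CPM in HA and 35.6, 57.6 and 72.0 CPM in IgG (2.65 ± 0.19). Neither overlapped between groups. The macrophage sialomucin gene Cd68 (log2 ratio 2.003), the cathepsin genes Ctsh (1.65) and Ctsz (1.35) and the progranulin gene Grn (1.496) followed. The proteases Lgmn, Ctsl and Ctsd were higher too, with ratios of 0.97 for Lgmn, 0.76 for Ctsl and 0.69 for Ctsd.

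Ctsd, an aspartic protease, read 860.2, 1045 and 1279 CPM in HA and 451, 697 and 846 CPM in IgG, and the lowest HA library was only just above the highest IgG library. Of the genes that disease-associated microglia switch on, 10 were tested, 6 higher and 0 lower (median 0.77). Lyve1 mice also had 6 of these 10 higher and 0 lower (median 0.77), against 11.7% and 14% over all genes tested. The difference between the lines passed for 0 of the 10 and for 0.218% of all genes tested. Cd9, a tetraspanin, read 59.7 to 99.1 CPM in HA and 14.0 to 37.7 CPM in IgG (1.49 ± 0.19), and the lipid carrier Apoe, an astrocyte product too, 2960.2 to 4536 CPM in HA and 1753 to 2543 CPM in IgG (0.81 ± 0.12). B2m, the light chain of MHC class I, had a ratio of 1.54 ± 0.28, Cd63 of 0.73 ± 0.14 and Cd52 of 1.29 ± 0.32. In the antigen presentation lists, 2 of 8 class I genes and 1 of 6 class II genes were higher, and 2 of 7 interferon-stimulated genes, with 0 lower in the 3 lists. Over all genes tested, 4.81% were higher and 4.99% lower, so 0 lower in lists this small says little.

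The macrophage label was checked against other cells that the split Cre or the tissue could bring in. Of 20 listed markers of border macrophages only 5 were tested, of which 1, the lysozyme gene Lyz2, was higher (1.43 ± 0.30) and 0 were lower. Their median log2 ratio was 0.39 against -0.01 over all genes tested, of which 4.81% were higher and 4.99% lower. Pf4, a chemokine of border macrophages, read 0.776, 3.37 and 7.50 CPM in HA and 0.618, 3.55 and 6.41 CPM in IgG (0.16 ± 0.44, edgeR adjusted p = 0.867), and its ratio turned to -0.14 without HA library 2-2 and -0.11 without IgG library 3-1. The summed border macrophage level ran from 146 to 198 CPM in HA and from 103 to 154 CPM in IgG. Lyve1 had 7 counts over the 6 HA libraries and 3 over the IgG libraries, and Mrc1 had 11 in each group.

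Of 10 listed neutrophil genes 3 were tested, of which 2 were higher and only 1 did not overlap between groups. Over all genes tested, 4.81% were higher and 2.47% did not overlap with HA above. Summed over 5 genes, the level was low but apart, at 48.4 to 75.7 CPM in HA and 5.31 to 21.4 CPM in IgG. Mmp9, a gelatinase stored in neutrophil granules, supplied most of it, at 17.1, 32.4 and 62.0 CPM in HA and 0, 3.53 and 6.18 CPM in IgG (3.29 ± 0.79), the largest ratio among all genes tested. A second gelatinase gene, Mmp2, which neutrophils are not known for, read 7.52, 18.3 and 29.6 CPM in HA and 2.36, 3.04 and 5.56 CPM in IgG (2.28 ± 0.63, edgeR adjusted p = 0.021). The call of Mmp2 was lost without HA library 1-2 (2.03) or IgG library 1-1 (2.16) or 1-2 (2.22). Camp, an antimicrobial peptide of neutrophils, had a ratio of 1.75 ± 0.57 (edgeR adjusted p = 0.0458). It was lost without any one of HA libraries 2-1, 3-1 and 3-2 or IgG libraries 1-1, 1-2, 2-1, 2-2 and 3-1, and was 2.68 without IgG library 3-2. S100a9 did not pass (1.39 ± 0.76), and S100a8 had 16 counts over HA and 13 over IgG. The part of neutrophil RNA in the other results was not tested. Monocyte, lymphocyte and red cell lists had at most 1 tested member each, and 0 passed.

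Markers of the tissue's main cell types stayed near the centre of all genes. The median log2 ratio was -0.12 over 21 neuronal genes, -0.04 over 14 astrocyte genes, -0.07 over 13 oligodendrocyte genes and -0.16 over 8 genes of their precursors. No astrocyte gene passed, and over all genes tested 9.8% did. Mag, a myelin adhesion molecule, was the 1 oligodendrocyte gene past the threshold (-0.59 ± 0.16), and Cspg4, the NG2 proteoglycan, the 1 of the precursors (-1.22 ± 0.25), both lower. Of the neuronal genes, the calmodulin-binding gene Nrgn (0.58 ± 0.12) and the neuropeptide gene Sst (0.59 ± 0.16) were higher. The Sst call was lost without HA library 3-1 (0.43) or IgG library 1-2 (0.48). Nrgn read 6389.9, 6946 and 9492 CPM in HA and 3972, 5136 and 5699 CPM in IgG without overlap.

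Some abundant transcripts of other cell types had small positive ratios. The lists of 9 fibroblast, 8 choroid plexus, 10 endothelial and 6 mural genes tested had 2, 1, 1 and 1 higher and 0 lower. Over all genes tested, 4.81% were higher and 4.99% lower. The lowest log2 ratios in these lists were -0.20, -0.56, -0.88 and -0.29 in the same order. Ttr, the thyroxine carrier that the choroid plexus secretes, read 2179, 2330.4 and 2934 CPM in HA and 1198, 1338 and 1553 CPM in IgG (0.87 ± 0.12). Ptgds, the prostaglandin synthase of the meninges, stood at 2669 to 3276 CPM in HA and 1630.2 to 2127 CPM in IgG (0.61 ± 0.10). Each of these pairs was without overlap. Igfbp2 (0.73), the vascular genes Bsg (0.60) and Myl9 (0.74) had log2 ratios of the same order. In Lyve1 mice the ratios of these genes were 1.08 for Ttr, 0.71 for Ptgds, 0.76 for Igfbp2, 0.81 for Bsg, 0.72 for Myl9 and 0.84 for Nrgn, and the difference between the lines passed for 0 of the 6. Over all genes tested that difference passed for only 0.218%, so the 0 of 6 says little.

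Genes of respiration and translation are used by every cell. Of 75 tested genes for subunits of the respiratory chain and ATP synthase, 22 were higher and 4 lower (median log2 ratio 0.39), against 4.81% higher and 4.99% lower over all genes tested. Higher were, among others, Ndufa7 of complex I (0.81 ± 0.17), Uqcr11 of complex III (0.76 ± 0.16) and Atp5e (0.79 ± 0.16) and Atp5g1 (0.75 ± 0.15) of ATP synthase. Lower were, among others, Sdha of complex II (-0.79 ± 0.12) and Uqcrc2 of complex III (-0.71 ± 0.17). Sdha read 175, 242 and 275 CPM in HA and 320.0, 384 and 509 CPM in IgG without overlap. Ribosomal protein genes had 8 of 76 members higher and 0 lower (median 0.27), with Rpl29 the largest of those past the threshold (0.68 ± 0.17), and translation factors 4 of 48 higher and 4 lower. In Lyve1 mice 54 of the 75 respiratory genes were higher and 6 lower. There, 27 of the 76 ribosomal protein genes were higher and 0 lower, and 10 of the 48 translation factors higher and 6 lower. Over all genes tested in that line, 11.7% were higher and 14% lower.

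**Figure D3:**
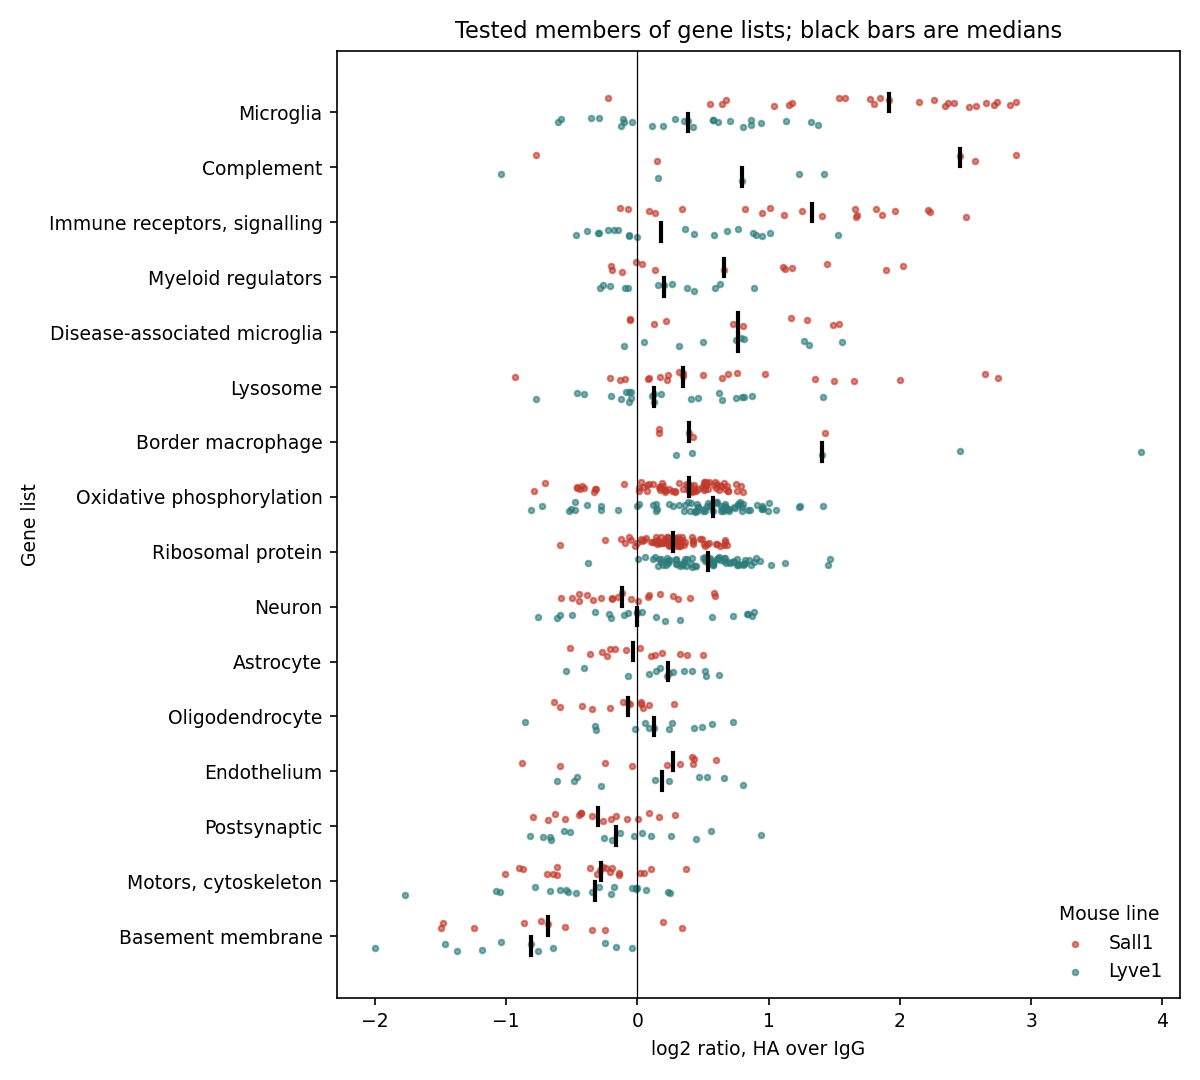
Each point is a tested gene of the list named at the left, with its log2 ratio of HA over IgG in Sall1 mice (red, upper row) and in Lyve1 mice (teal, lower row), and black bars are medians. In Sall1 mice the microglial, complement and immune receptor lists have medians of 1.91, 2.46 and 1.33, and the basement membrane list has -0.68.

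The largest negative ratios belonged to Atrip and Trex1. Atrip, the partner of the DNA damage kinase ATR, read 22.5 to 58.2 CPM over the HA libraries. In IgG libraries 1-1, 1-2, 2-1, 2-2, 3-1 and 3-2 it read 2404, 3098, 5557, 8982, 255 and 257 CPM. The excess therefore lay in the IgG libraries, and it was far smaller in the pair of first number 3. The log2 ratio was -6.27 ± 0.82 (edgeR adjusted p = 3.95e-05), and by first number -6.02, -7.57 and -2.30. Trex1, a DNA exonuclease, read 38.9 to 66.5 CPM in HA and 772, 914, 2382, 3467, 94.5 and 118 CPM in the same IgG libraries (-4.62 ± 0.69). The order of the 6 IgG libraries was the same for both genes.

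Atrip and Trex1 are adjacent in the RefSeq gene order, where a noncoding transcript over both, Atrip-trex1, is annotated, and how shared reads were counted is not stated, so the split of reads between them is uncertain. The protein-coding genes on either side did not share the pattern. Shisa5 read 63.1 to 90.8 CPM in HA and 44.2 to 76.6 CPM in IgG (0.41 ± 0.15, edgeR adjusted p = 0.0691, or 0.52 and a pass without IgG library 3-1), and Tma7 42.7 to 133 CPM in HA and 31.2 to 74.2 CPM in IgG (0.48 ± 0.26, edgeR adjusted p = 0.271). Both genes were also lower in Lyve1 mice, with ratios of -3.38 for Atrip and -2.25 for Trex1, and the differences between the lines did not pass (edgeR adjusted p = 0.665 and 0.76).

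A further set of genes with large negative ratios was high in some IgG libraries and overlapped between groups. Rbm25, a splicing regulator, read 4.10 to 16.4 CPM in HA, and in IgG libraries 1-1, 1-2, 2-1, 2-2, 3-1 and 3-2 18.9, 30.2, 315, 651, 4.94 and 2.14 CPM (-4.36 ± 1.01, edgeR adjusted p = 0.00842). The libraries of first number 2 held nearly all of it, and those of first number 3 lay within the HA range or below. Ubr3, a ubiquitin ligase gene, read 8.20 to 29.8 CPM in HA and 246, 240.1, 199, 378, 28.4 and 16.4 CPM in the same IgG libraries (-3.12 ± 0.56). Here the 4 IgG libraries of first numbers 1 and 2 lay above all HA libraries, and those of number 3 lay within the HA range. The centrosomal gene Cep290 (-4.25 ± 0.76), the liprin gene Ppfibp1 (-2.75 ± 0.58) and the ribosome biogenesis gene Ftsj3 (-2.10 ± 0.51) also had their highest level in IgG library 2-2. Without that library the ratios were -3.13 for Rbm25, -3.67 for Cep290, -2.78 for Ubr3, -2.005 for Ppfibp1 and -1.54 for Ftsj3, all still past the threshold. The log2 ratio of Rbm25 did not pass with limma-voom (-1.68) or without first number 2 (-1.15), and the log2 ratio of Ftsj3 did not pass with the 2 Sall1 groups alone (-2.13) or without first number 2 (-1.15). In Lyve1 mice the ratios were -0.17 for Rbm25, -2.24 for Cep290, -0.52 for Ubr3, -0.27 for Ppfibp1 and -0.14 for Ftsj3, and the difference between the lines passed for 0 of the 5. Since that difference passed for only 0.218% of all genes tested, 0 of 5 does not show that the lines agree.

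In all, 14 genes, Atrip and Trex1 among them, met the rule for depletion of at least 2-fold with groups that do not overlap, a state that 1.11% of all genes tested reached with HA below. Usp24, a ubiquitin protease, read 51.2, 73.3 and 90.2 CPM in HA and 137, 238 and 755 CPM in IgG (-2.11 ± 0.31). Plxna2, a semaphorin receptor of axons, read 10.9, 15.7 and 21.6 CPM in HA and 30.6, 33.2 and 42.2 CPM in IgG (-1.15 ± 0.18). The teneurin genes Tenm2 (-1.22) and Tenm4 (-1.07), the adhesion receptor gene Celsr2 (-1.05) and the lipid transporter gene Abca3 (-1.14) also encode large membrane proteins. The rest were Gemin5 (-1.41) of the SMN complex, the histone demethylase gene Kdm5b (-1.06), the WD-repeat genes Wdr90 (-1.33) and Wdr7 (-1.01), the zinc finger gene Zfp619 (-1.18) and Lamb1, values being log2 ratios.

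Basement membrane genes had the lowest median of the lists. Of 11 tested, 3 were lower and 0 higher, against 4.99% lower and 4.81% higher over all genes tested. Their median log2 ratio was -0.68. Lamb1, a laminin chain, read 5.45, 7.07 and 12.3 CPM in HA and 14.97, 20.6 and 30.2 CPM in IgG without overlap (-1.48 ± 0.24). The laminin gene Lamc1 had a ratio of -1.25 ± 0.25 and the collagen gene Col4a1 of -1.49 ± 0.40, with 7.93 to 16.5 CPM in HA and 8.03 to 90.2 CPM in IgG. Col4a1 was not lower in first number 3 (-1.502, -2.35 and 0.34 by first number). Markers of endothelial and mural cells, which lie on this membrane, were not lower as a list, with medians of 0.27 and 0.20 and 0 of 10 and 0 of 6 lower.

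Motors and cytoskeletal genes of neurites had 7 of 20 tested members lower and 0 higher (median -0.27). Over all genes tested, 4.99% were lower and 4.81% higher. Dync1h1, the heavy chain of dynein, read 309, 449 and 569.9 CPM in HA and 434, 1038 and 1159.5 CPM in IgG (-1.01 ± 0.17), and the groups overlapped. By first number its difference was -1.62, -0.17 and -1.03, so number 2 gave little of it. Kif1a, a kinesin of synaptic vesicle precursors, read 429, 536 and 627 CPM in HA and 689, 964 and 1308 CPM in IgG without overlap (-0.90 ± 0.14). The dynein chain gene Dync1i1 (-0.61), the kinesin genes Kif1b (-0.69) and Kif5c (-0.64) and the microtubule gene Map1b (-0.61) had smaller log2 ratios. Postsynaptic genes had 4 of 16 lower and 0 higher (median -0.30), led by the AMPA receptor gene Gria3 (-0.79 ± 0.22), whose call was lost without HA library 2-2 (-0.71) or 3-2 (-0.70) or IgG library 1-1 (-0.77).

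The genes that rose and those that fell differed in length. The span of a gene in RefSeq, introns included, had a median of 7.74 kb over 461 higher genes, 49.1 kb over 480 lower genes and 23.2 kb over all genes tested. Among the genes at least 2-fold higher the median was 14.7 kb, and among those at least 2-fold lower 72.7 kb. The genes were then cut by span into 10 groups of about 960. In the shortest group, with a median span of 2.71 kb, 15.5% were higher and 1.25% lower. In the longest group, with a median of 224 kb, 0.417% were higher and 10.3% lower. The median log2 ratio was 0.24 in the shortest group and -0.21 in the longest and fell at each step between them. Span is not transcript length.

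**Figure D4:**
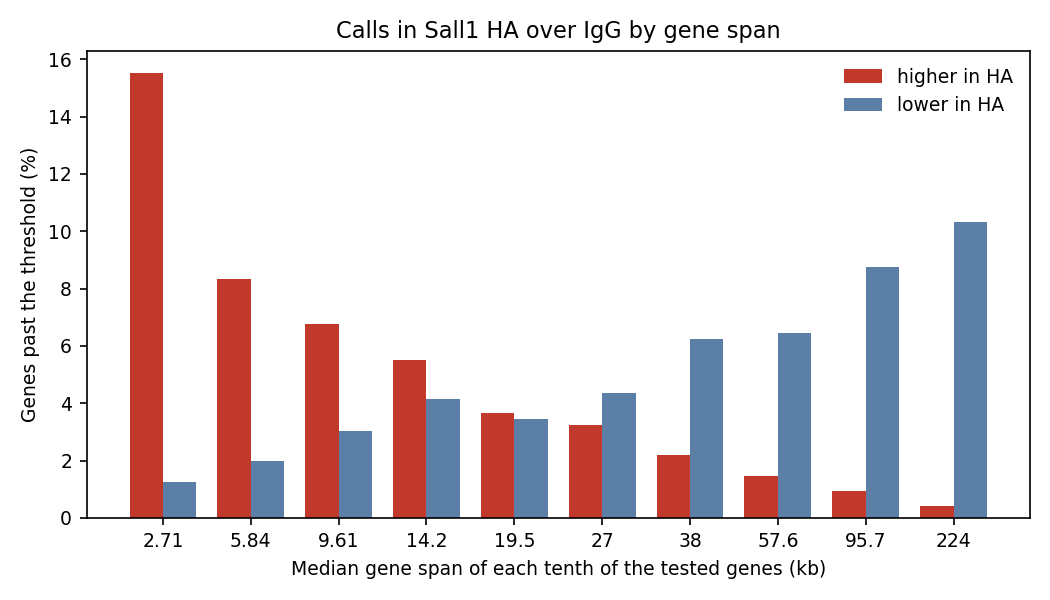
Share of genes past the threshold in percent, higher in HA (red) and lower in HA (blue), for 10 groups of the tested genes ordered by RefSeq gene span, labelled by their median span in kb. The higher share falls from 15.5% to 0.417% and the lower share rises from 1.25% to 10.3% towards longer genes.

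The Lyve1 line, where Cx3cr1 and Lyve1 direct the tag to macrophages at the borders of the brain, shows which of these ratios differ between lines. In Lyve1 mice 25.7% of the genes tested passed, 11.7% higher in HA and 14% lower, with 1.7% at least 2-fold higher. Of the 463 genes higher in Sall1 mice, 313 (67.6%) were also higher in Lyve1 mice and 1 was lower. Of the 480 lower genes, 413 (86.0%) were also lower in Lyve1 mice and 0 were higher. Of the 110 genes at least 2-fold higher, 41 (37.3%) were higher in Lyve1 mice and 0 lower. The 2 lines use separate HA and separate IgG libraries.

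The difference of the log2 ratios, Sall1 minus Lyve1, passed for 21 genes (0.218%). Of these, 20 (0.208%) had the larger ratio in Sall1 mice and 1 (0.0104%) in Lyve1 mice. None of the 480 lower genes was among the 21. Of the 25 tested microglial genes 9 passed this test, against 3 of 20 immune receptor and signalling genes, 2 of 5 complement genes and 3 of 23 lysosomal genes. These lists were chosen with earlier results of these data known. Trem2 had a ratio of 2.53 ± 0.18 in Sall1 and 0.35 ± 0.19 in Lyve1 mice, a difference of 2.17 ± 0.26 (edgeR adjusted p = 1.97e-05). For Tmem119 the difference was 2.02 ± 0.28 (edgeR adjusted p = 8.56e-05), for Laptm5 1.999 ± 0.27 and for Selplg 1.57 ± 0.22. Trem2 was not past the threshold in Lyve1 mice, whereas Tmem119, Laptm5 and Selplg were, at 0.87, 0.65 and 0.58.

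Csf1r, Slc2a5, Fcrls, Itgb5, Inpp5d and the organic anion transporter gene Slco2b1 had Lyve1 ratios at or below 0, from -0.35 for Slc2a5 to -0.06 for Itgb5, and their differences ran from 1.18 ± 0.22 for Itgb5 to 2.61 ± 0.48 for Slc2a5. None of these 6 passed in Lyve1 mice. Ctsd was the gene that moved in opposite directions and passed in both lines, at 0.69 ± 0.13 in Sall1 and -0.41 ± 0.13 in Lyve1 mice, a difference of 1.10 ± 0.19. The chains C1qa (1.66 ± 0.25) and C1qc (1.34 ± 0.24) passed the test of the difference, and C1qb did not (1.47 ± 0.34, edgeR adjusted p = 0.0798). All 3 chains were also higher and past the threshold in Lyve1 mice, at 0.80 for C1qa, 1.42 for C1qb and 1.23 for C1qc.

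The other 7 with a larger ratio in Sall1 mice were Bin2, Crybb1, Ncf1, Olfml3, Lgmn, the MD-2-like gene Ly86 and the Rab-regulator gene Rab3il1. Ly86 read 41.9, 50.1 and 57.3 CPM in Sall1 HA and 6.85, 10.4 and 14.8 CPM in Sall1 IgG (2.15 ± 0.19), and its difference was 1.76 ± 0.29. Rab3il1 read 33.1 to 66.8 CPM in Sall1 HA and 9.14 to 12.4 CPM in Sall1 IgG, with a difference of 1.52 ± 0.31. Pf4 was the 1 gene with a larger ratio in Lyve1 mice (0.16 ± 0.44 in Sall1, 3.84 ± 0.43 in Lyve1, difference -3.68 ± 0.65, edgeR adjusted p = 0.00295). Mmp9 and Mmp2 were enriched in both lines, at 4.77 and 3.33 in Lyve1 mice, and their differences did not pass (edgeR adjusted p = 0.838 and 0.84).

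**Figure D5:**
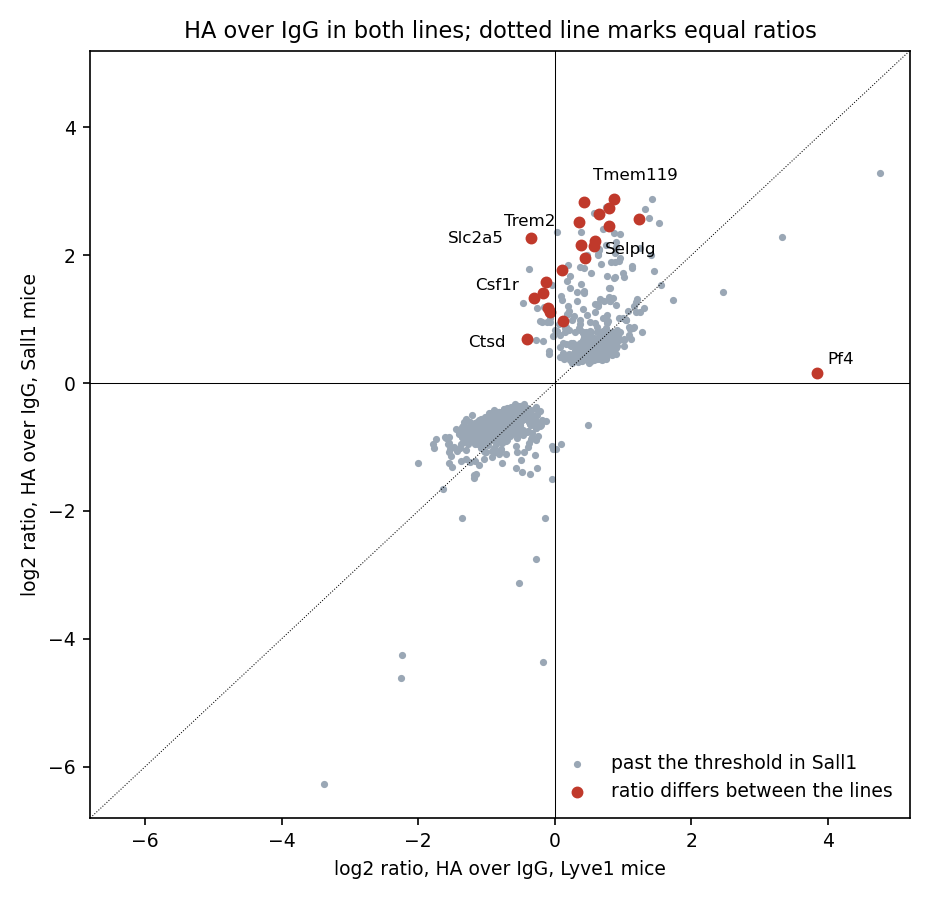
Genes past the threshold in Sall1 mice (grey) and genes whose ratio differs between the lines (red), with the log2 ratio of HA over IgG in Lyve1 mice on the x axis and in Sall1 mice on the y axis, and equal ratios on the dotted line. The 20 genes above the line include Trem2, Tmem119 and Csf1r, and Pf4 lies at the far right below it.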

How the data were processed

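RNA from brain precipitates was sequenced by MARS-seq, per the labels' protocols. The genome build was mm9, according to the submitters' processing notes, and the tools for alignment and counting are not given in the sources used here. Whole-number counts per gene and library were deposited for 12580 genes, per the file headers, each with a highest count of at least 6. The log2 fold changes and adjusted p-values of the authors' deposited table were compared once with those computed here.

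Column names give a group and a pair of numbers that match no single sample title, so libraries were assigned to groups only. With R 4.3.3, counts of the 24 steady-state libraries were filtered (filterByExpr, minimum count 10, total 15), scaled by TMM and fitted together in edgeR 4.0.16 (robust quasi-likelihood, 20 residual degrees of freedom), and p-values were adjusted over all 9619 genes, which hold 99.04% of the counts. The standard error is the log2 ratio over the root of F. The method was tested on simulated data.

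Genes named had an adjusted p under 0.05, at least 2-fold change, an average of at least 10 counts in the higher group and no overlap (up to 20 per direction), or belonged to a list or neighbour these. Ly86, Slco2b1 and Rab3il1, which complete the genes that differ between lines, and Rbm25, Cep290, Ubr3, Ppfibp1 and Ftsj3 were chosen after their values were seen. Members and lists were chosen with earlier results of these data known. Unnamed gene models were left out, and some list members counted here are not reported by name. RefSeq symbols matched 9600 tested genes. DESeq2 1.42.0 and limma 3.58.1 served as alternatives.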

Additional observations from a re-analysis of the deposited data

Results flagged for a closer look

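Single libraries stood far from the other 5 of their group for 15 of the 230 combinations of a named gene and a group, where chance flags about 1 in 20. In HA library 3-2 the levels were low for Tmem119 (169.6 CPM, others 235.7 to 281.6), Bin2 (19.0 CPM, others 38.3 to 50.4), Inpp5d (19.9 CPM, others 32.1 to 42.5) and Cd68 (9.10 CPM, others 29.5 to 47.7). Kif5c was low in HA library 3-1 (90.2 CPM) and in IgG library 3-2 (251.6 CPM), and Celsr2 in HA library 1-1 (22.5 CPM). Among IgG libraries, 1-2 was low for Aif1 (4.58 CPM) and Trem2 (22.9 CPM). Library 2-1 was high for Spi1 (12.9 CPM) and Ctsl (63.7 CPM) and low for Inpp5d (4.32 CPM). Library 3-1 was low for Cd68 (4.33 CPM) and high for Shisa5 (76.6 CPM), and library 3-2 at 0 CPM for Itgb2.

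The ratio of HA over IgG differed between the lines, by the test of the difference, for 21 genes. On the log2 scale, Sall1 minus Lyve1, the values were 2.61 for Slc2a5, 2.41 for Bin2, 2.17 for Trem2, 2.02 for Tmem119, 1.999 for Laptm5, 1.94 for Crybb1, 1.76 for Ly86, 1.71 for Csf1r, 1.66 for Olfml3, 1.66 for C1qa, 1.64 for Ncf1, 1.64 for Slco2b1, 1.58 for Inpp5d, 1.57 for Selplg, 1.52 for Rab3il1, 1.34 for C1qc, 1.28 for Fcrls, 1.18 for Itgb5, 1.10 for Ctsd and 0.84 for Lgmn, and -3.68 for Pf4.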

How the results depend on the processing

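The 943 genes past the threshold became 541 with only the 2 Sall1 groups, 263 without the Sall1 libraries of first number 1, 509 within first number 2 alone, 10 within first number 3 alone, 163 with libraries of a group and first number summed and 69 without the libraries that hold Y-linked counts. Leaving out 1 library gave 567 to 1135. DESeq2 size factors (952), library totals (1012), no filter (870), a 1 CPM filter (873), the DESeq2 Wald test (1139) and limma-voom (1226) stayed within 1.5 times. The same-numbered HA and IgG libraries correlated at -0.01 to 0.35 in their deviations from group means and 3 of 6 matched best, so whether the numbers pair them is not settled. Within the 2 Sall1 groups, where the fit without a block gave 541, a replicate block gave 718 and the first number as a block gave 1131. The 25 microglial genes kept 0 lower calls in all 29 alternatives, with 11 higher without the Y-linked libraries and 4 within first number 3. The 21 genes that differ between lines became 19 to 24. Of the 115 named genes, 73 lost their call without the Y-linked libraries and 42 with libraries summed, and within first number 3 alone 91 of 109 did. Signs were reversed for the log2 ratio of Tgfbr1 (-0.0746 within first number 3, -0.0478 without the Y-linked libraries), Rbm25 (0.31 without the Y-linked libraries), Col4a1 (0.23 and 0.26 in the same order), Pf4 (-0.24 without first number 2, and -0.14 to 0.43 on leaving out 1 library) and the log2 ratio of Rpl22 (-0.0875 without first number 1, -0.18 within first number 2, and -0.0201 to 0.11 on leaving out 1 library). The cause was not tested. According to the authors' deposited table, in all 1019 genes had an adjusted p under 0.05, and 923 of these passed here in the same direction. P2ry12 fell under the count minimum and was tested only in the alternatives with no filter or the 1 CPM filter.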
